A study of Mus musculus with 8 samples.

Results

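The Dlk1-Dio3 domain is an imprinted stretch of mouse chromosome 12 in which protein-coding genes and long noncoding RNAs are read from opposite parental copies. The transcripts described here are its noncoding RNAs Meg3, Rian and Mirg and its protein-coding genes Dlk1, Dio3 and Rtl1. They were chosen by name, as all array probes whose gene name, or whose accession, resolves to 1 of these 6 genes. Of the 6 genes, 5 had a probe, with 11 probes of the 41174 on the array, which stand for 27636 genes. No probe matched Rtl1, which was not analysed here. The set was proposed with values of these arrays already known, so every difference below is a description of these arrays.

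Total RNA of 4 cell populations was hybridised to a 1-colour Agilent array with Cy3 label, 1 array per group. PM2i-iPSC and OM2i-iPSC are induced pluripotent stem cell preparations made from mouse embryonic fibroblasts. The cells had been treated with combinations that contained purmorphamine for PM2i-iPSC, or an oxysterol for OM2i-iPSC, and then with 2i/LIF. ES are embryonic stem cells of 129/Ola background from blastocysts, and MEF are embryonic fibroblasts. Purmorphamine is a synthetic agonist of the Hedgehog pathway protein Smoothened, which some oxysterols also activate. 2i/LIF combines a MEK inhibitor and a GSK3 inhibitor with leukaemia inhibitory factor and is used to keep mouse pluripotent cells in culture. The labels give no dose, no time, no strain for the iPSC preparations or MEF, and do not say whether a preparation was 1 clone or a pool of colonies. The series also holds 4 Affymetrix arrays of other cells, whose probe sets could not be named and which are not used here.

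In mouse, Dlk1, Rtl1 and Dio3 are expressed from the paternal chromosome, and Meg3, Rian and Mirg from the maternal one. A methylation mark set in the father's germ line lies between Dlk1 and Meg3 and keeps the 2 patterns apart. Meg3 is a nuclear RNA with growth-restraining activity, Rian is the host of many small nucleolar RNAs, and Mirg is the host of a large microRNA cluster. Dlk1 is a transmembrane relative of the Notch ligands, Dio3 is the deiodinase that inactivates thyroid hormone, and Rtl1 is a retrotransposon-derived gene needed in the placenta. The domain is well known in mouse iPSC biology because its noncoding RNAs are silenced in some iPSC lines and expressed in others. The arrays do not tell the parental copies apart.

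The probes of the noncoding RNAs are shown because all results below rest on what these 60 bases detect. Coordinates are on chromosome 12, plus strand, build mm7, as the scanner file of MEF gives them. Meg3 is named Gtl2 in that file, and exon positions were not used here.
Meg3 A_52_P391505, chr12:107070994-107079479: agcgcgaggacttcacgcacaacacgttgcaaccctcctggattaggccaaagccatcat
Meg3 A_52_P99341, chr12:107080192-107080251: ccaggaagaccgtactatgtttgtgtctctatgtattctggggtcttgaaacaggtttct
Meg3 A_52_P196568, chr12:107082578-107082637: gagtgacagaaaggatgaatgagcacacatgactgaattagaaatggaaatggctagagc
Meg3 A_51_P109649, chr12:107083918-107083977: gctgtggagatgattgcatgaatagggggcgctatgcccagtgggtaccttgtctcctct
Meg3 A_51_P455997, chr12:107092697-107092756: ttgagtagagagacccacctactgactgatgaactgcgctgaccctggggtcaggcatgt
Rian A_52_P102630, chr12:107172103-107172162: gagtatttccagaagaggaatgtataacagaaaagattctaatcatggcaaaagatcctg
Rian A_52_P244, chr12:107180614-107180673: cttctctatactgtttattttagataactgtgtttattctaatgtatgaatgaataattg
Mirg A_52_P277415, chr12:107261346-107261405: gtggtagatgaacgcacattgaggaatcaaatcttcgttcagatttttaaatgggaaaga
The first Meg3 probe covers 8486 bases of the genome with 60 bases of sequence, so its match is split over separate blocks. The other probes lie in 1 unbroken stretch each.

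Signals were compared after scaling to each array. The 75th percentile of the processed signal was 3529 in PM2i-iPSC, 3426 in OM2i-iPSC, 3162 in ES and 1877 in MEF, and a level is log2 of the signal minus log2 of that percentile. The lowest signal well above background, which sets the bound for a dim probe, was 147 in PM2i-iPSC, 142 in OM2i-iPSC, 90.1 in ES and 16.3 in MEF. A fold given as "at least" was computed against that bound or the dim probe's own signal, whichever was higher. With 1 array per group there is no replicate error and no test. The only error available is the spread between spots of 1 probe on 1 array, taken from 245 probes printed 10 times, which gives an SD of 0.29 for a log2 difference. Each member probe has 1 spot, and a log2 difference below 2 such SDs, 0.58, is called within spot error. Spots of low signal spread more, with an SD of 0.41 for 1 spot in PM2i-iPSC, 0.25 in OM2i-iPSC, 0.27 in ES and 0.17 in MEF.

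The pluripotent identity of the preparations was checked with marker genes. All 9 probes of the ES markers Pou5f1, Nanog, Sox2, Zfp42, Esrrb and Dppa5a exceeded MEF by 2-fold or more in each of PM2i-iPSC, OM2i-iPSC and ES. Of all probes, 37.7% did so in PM2i-iPSC, 39.5% in OM2i-iPSC and 36.9% in ES. The summed level of the 6 ES marker genes, as a percent of the 75th percentile, was 7555 in PM2i-iPSC, 6458 in OM2i-iPSC, 9235 in ES and 131 in MEF. For 6 fibroblast markers the sum was 407 in PM2i-iPSC, 438 in OM2i-iPSC, 597 in ES and 10063 in MEF. Signals of Nanog and Dppa5a were saturated in PM2i-iPSC, OM2i-iPSC and ES, that of Esrrb in PM2i-iPSC, and that of Col1a2 in MEF. The sums are capped there, so the ES marker sums of the pluripotent arrays cannot be ranked. The fibroblast genes Lum and Postn were not well above background in either preparation, and Dcn was not in OM2i-iPSC. PM2i-iPSC and ES shared a slide, OM2i-iPSC lay on another slide of the same scan day, and MEF on a further slide scanned on another day. Slide and group therefore cannot be told apart for OM2i-iPSC and MEF.

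The noncoding RNAs of the domain were high in OM2i-iPSC and MEF and low in PM2i-iPSC and ES, except at Meg3 probe A_51_P109649, which was high in OM2i-iPSC alone. In OM2i-iPSC, all 8 probes of Meg3, Rian and Mirg exceeded ES by more than 4-fold, with a median log2 difference of 4.26 and a range of 2.37 to 5.29. Among the 28887 probes compared, 21.1% exceeded ES in OM2i-iPSC by 2-fold or more and 6.26% by 4-fold or more, while 15.5% lay below ES by 2-fold or more, and the median was 0.01. In PM2i-iPSC against ES the median was -0.23 over the 6 noncoding probes with a fold, those of Meg3 and Mirg, where that of all probes was -0.05. For the protein-coding genes the median log2 difference was 0.99 in OM2i-iPSC against ES and 0.01 in PM2i-iPSC against ES, over 1 probe each of Dlk1 and Dio3.

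**Figure D1:**
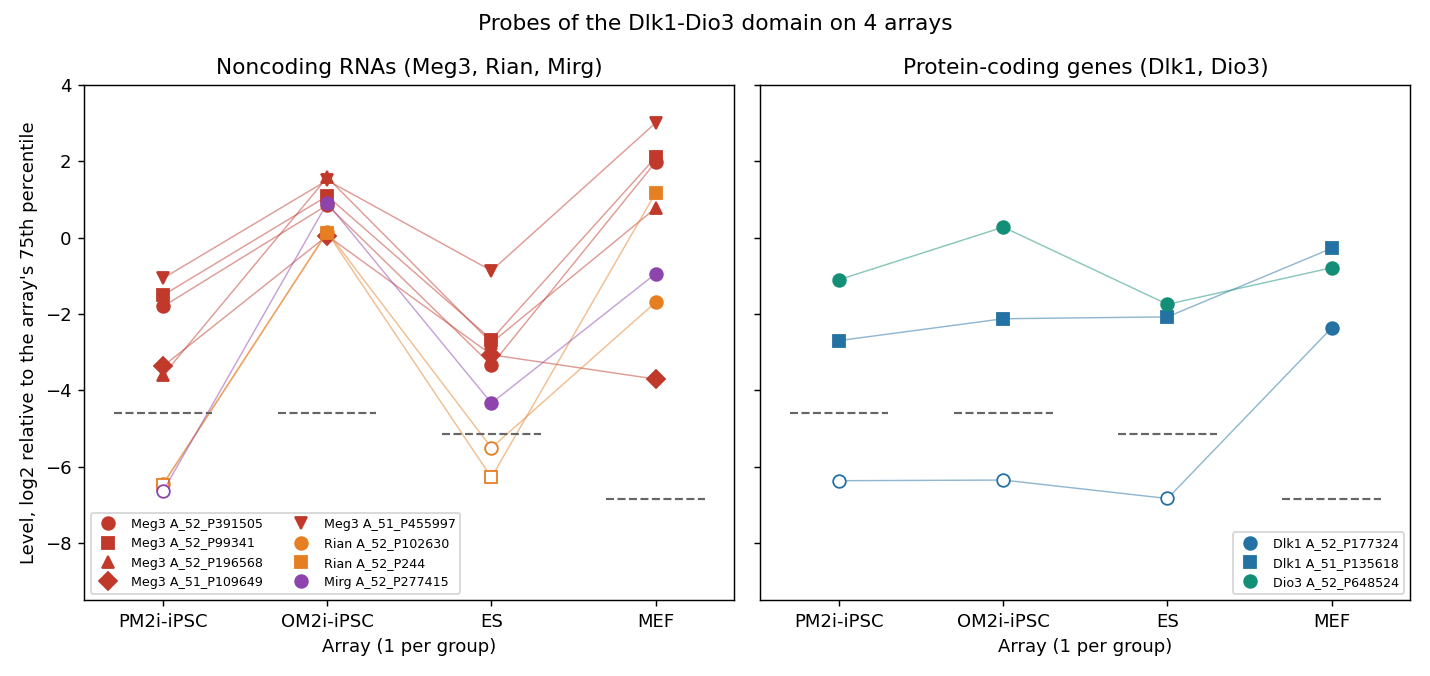
Level of each probe of the domain on 4 arrays, as log2 of the signal relative to the array's 75th percentile, with PM2i-iPSC, OM2i-iPSC, ES and MEF from left to right. Filled markers are well above background, open markers are not, and dashed bars give the array's detection floor. All 8 noncoding probes lie high in OM2i-iPSC, Rian and Mirg are open in PM2i-iPSC, and 1 Meg3 probe is low in MEF.

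Meg3 was measured by 5 probes that lie 89.5 to 111.2 kb from the first Dlk1 probe. The most 5′ probe, A_52_P391505, had a signal of 1010 in PM2i-iPSC, 6191 in OM2i-iPSC, 312 in ES and 7399 in MEF. This probe was 18.3-fold higher in OM2i-iPSC and 2.90-fold higher in PM2i-iPSC than in ES. The next probe, A_52_P99341, had a signal of 1239 in PM2i-iPSC, 7287 in OM2i-iPSC, 497 in ES and 8059 in MEF. On both of these probes the order of levels was MEF, OM2i-iPSC, PM2i-iPSC and ES, and every step was wider than spot error.

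The remaining 3 Meg3 probes did not have PM2i-iPSC above ES. Probe A_52_P196568 had a signal of 290 in PM2i-iPSC, 10221 in OM2i-iPSC, 468 in ES and 3208 in MEF. It was 20.2-fold higher in OM2i-iPSC than in ES, the widest difference among the Meg3 probes in that comparison, while PM2i-iPSC lay 1.80-fold below ES. That last step was not clear of spot error, which is wider at such low signals. Probe A_51_P109649 had a signal of 342 in PM2i-iPSC, 3548 in OM2i-iPSC, 377 in ES and 144 in MEF. It stood apart from the other Meg3 probes in MEF, where its level was close to those in PM2i-iPSC and ES. The order of these 3 arrays depended on the scaling, since the log2 difference of PM2i-iPSC from MEF was -0.41 with quantile normalization and -0.29 with the array median, and that of ES from MEF was -0.03 and 0.08. On this probe PM2i-iPSC differed from ES and from MEF by 0.30 and 0.34 on the log2 scale in the main scaling, both within spot error. In that scaling ES lay 0.64 above MEF, just outside spot error, and OM2i-iPSC was 8.69-fold higher than ES.

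The most 3′ probe of Meg3, A_51_P455997, had a signal of 1685 in PM2i-iPSC, 9708 in OM2i-iPSC, 1734 in ES and 15078 in MEF. The log2 difference between PM2i-iPSC and ES was -0.20, within spot error, and OM2i-iPSC was 5.17-fold higher than ES. Along Meg3 the difference between OM2i-iPSC and ES thus ran from 5.17-fold to 20.2-fold. That between PM2i-iPSC and ES changed sign, but no negative value was clear of spot error for its signal. The accessions behind the probes differ, with AK147321 for the first 3, AI850416 for A_51_P109649 and XM_981786 for A_51_P455997, and whether they detect separate isoforms was not tested.

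Rian was measured by 2 probes. Probe A_52_P102630 had a signal of 40.4 in PM2i-iPSC, 3815 in OM2i-iPSC, 69.6 in ES and 580 in MEF. Probe A_52_P244 had a signal of 39.7 in PM2i-iPSC, 3757 in OM2i-iPSC, 40.7 in ES and 4228 in MEF. On both probes PM2i-iPSC and ES were not well above background, so no fold between them is given. OM2i-iPSC was at least 39.1-fold and at least 38.5-fold higher than ES on these probes.

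The Rian probes disagreed on the order of OM2i-iPSC and MEF. In OM2i-iPSC, A_52_P102630 lay 3.60-fold above MEF and A_52_P244 lay 2.05-fold below it. Both differences were wider than spot error.

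Mirg was measured by 1 probe, with a signal of 35.2 in PM2i-iPSC, 6419 in OM2i-iPSC, 157 in ES and 974 in MEF. PM2i-iPSC was the only array on which this probe was not well above background. OM2i-iPSC was 37.8-fold higher than ES, which ranked 29 from the top among the 28887 probes compared. Against PM2i-iPSC it was at least 45.1-fold higher, rank 13 of 28664, and against MEF 3.61-fold higher. The signal of 157 in ES lay close to the floor of 90.1 on that array.

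The noncoding RNAs also host microRNAs, which this array did not measure. In the RefSeq table of GRCm38.p6, 10 microRNA hairpins lie within Mirg, 3 within Rian and 1 within Meg3. Another 15 lie within the interval given for the protein-coding Rtl1. Of these, 13 are on the plus strand, as are the probes of Meg3, Rian and Mirg, and 2 on the minus strand. None lie within Dlk1 or Dio3. Mature sequences from Mirg are shown because its host RNA had the widest measured difference, leaving out bounds, between OM2i-iPSC and ES among the members, and the capitals mark the seed, bases 2 to 8.
mmu-miR-453: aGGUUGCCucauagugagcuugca
mmu-miR-496a-5p: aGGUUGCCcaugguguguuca
mmu-miR-409-3p: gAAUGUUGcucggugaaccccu
mmu-miR-369-3p: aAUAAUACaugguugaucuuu
mmu-miR-410-3p: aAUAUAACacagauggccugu
The first 2 share the seed GGUUGCC, and no seed is shared by more than 2 of the 19 mature sequences of Mirg. A level of the host RNA says nothing here about the level of the mature microRNAs.

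The promoter of Meg3 is shown because its transcript is the 5′-most of the noncoding RNAs. The window covers 250 bases before and 50 after the start of Meg3 in RefSeq, GRCm38.p6, plus strand, chr12:109540746-109541045. Capitals mark matches to TGACGTCA, the cyclic AMP response element, and to TATATAA, a core promoter element that matched on both strands with overlap.
Meg3 promoter: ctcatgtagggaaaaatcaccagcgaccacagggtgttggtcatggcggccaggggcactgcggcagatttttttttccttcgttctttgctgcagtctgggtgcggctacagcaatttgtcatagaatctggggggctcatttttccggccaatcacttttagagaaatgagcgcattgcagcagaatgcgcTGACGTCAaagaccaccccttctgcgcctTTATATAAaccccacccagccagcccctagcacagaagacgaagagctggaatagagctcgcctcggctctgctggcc
TGACGTCA starts at base 194 of the window and TATATAA at base 224 on the plus strand. Of 32817 promoter windows of the same length, 1.79% hold TGACGTCA and 3.25% hold TATATAA on either strand. The windows of Dlk1, Dio3, Mirg and Rian hold neither. The Meg3 window has 13 CG pairs, that of Dio3 has 25, Mirg 10, Dlk1 9 and Rian 0, against a median of 7 over all windows. RefSeq lists a second Meg3 start whose window has 1 CG pair and neither motif. No methylation was measured on these arrays.

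Among the protein-coding genes, Dio3 alone exceeded ES by 2-fold or more in OM2i-iPSC. Its probe had a signal of 1644 in PM2i-iPSC, 4145 in OM2i-iPSC, 942 in ES and 1086 in MEF. OM2i-iPSC was the highest array, 4.06-fold above ES, 2.60-fold above PM2i-iPSC and 2.09-fold above MEF. The log2 difference from MEF, 1.06, fell short of 2-fold with other settings, at 0.32 with the array median, 0.90 with quantile normalization and 0.88 with normexp background correction. PM2i-iPSC was 1.56-fold above ES, a step just outside spot error, and its difference of -0.31 from MEF was within it.

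Dlk1 was highest in MEF on both of its probes. Probe A_52_P177324 had a signal of 42.7 in PM2i-iPSC, 42.0 in OM2i-iPSC, 27.7 in ES and 364 in MEF, and only MEF was well above background. It lay at least 4.67-fold below MEF in both preparations and at least 6.81-fold below MEF in ES. Probe A_51_P135618 had a signal of 544 in PM2i-iPSC, 785 in OM2i-iPSC, 750 in ES and 1545 in MEF. On the log2 scale, OM2i-iPSC and ES lay 0.05 apart, within spot error, and PM2i-iPSC lay 0.62 below ES.

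The 2 preparations differed from each other at the noncoding RNAs. In OM2i-iPSC all 8 noncoding probes exceeded PM2i-iPSC by more than 4-fold, with log2 differences of 2.57 to 5.49 and a median of 4.07. Across all 28664 probes compared, 17.6% were higher in OM2i-iPSC by 2-fold or more and 4.6% by 4-fold or more, with a median of 0.08. For the protein-coding probes the log2 difference was 0.57 for Dlk1, within spot error, and 1.38 for Dio3. The noncoding median exceeded the coding median by 3.10 on the log2 scale. The labels give neither dose nor time, so the 2 preparations are given side by side and were not matched. They also lay on different slides, and a response to purmorphamine or to the oxysterol was not tested.

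Against ES, PM2i-iPSC had 2 of the 6 noncoding probes with a fold higher by 2-fold or more, both at the 5′ end of Meg3, and 0 lower. The shares of all 28137 probes were 15.3% higher and 13.0% lower. No coding probe was 2-fold apart in either direction. The noncoding median lay 0.24 below the coding median in this comparison and 3.28 above it in OM2i-iPSC against ES.

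**Figure D2:**
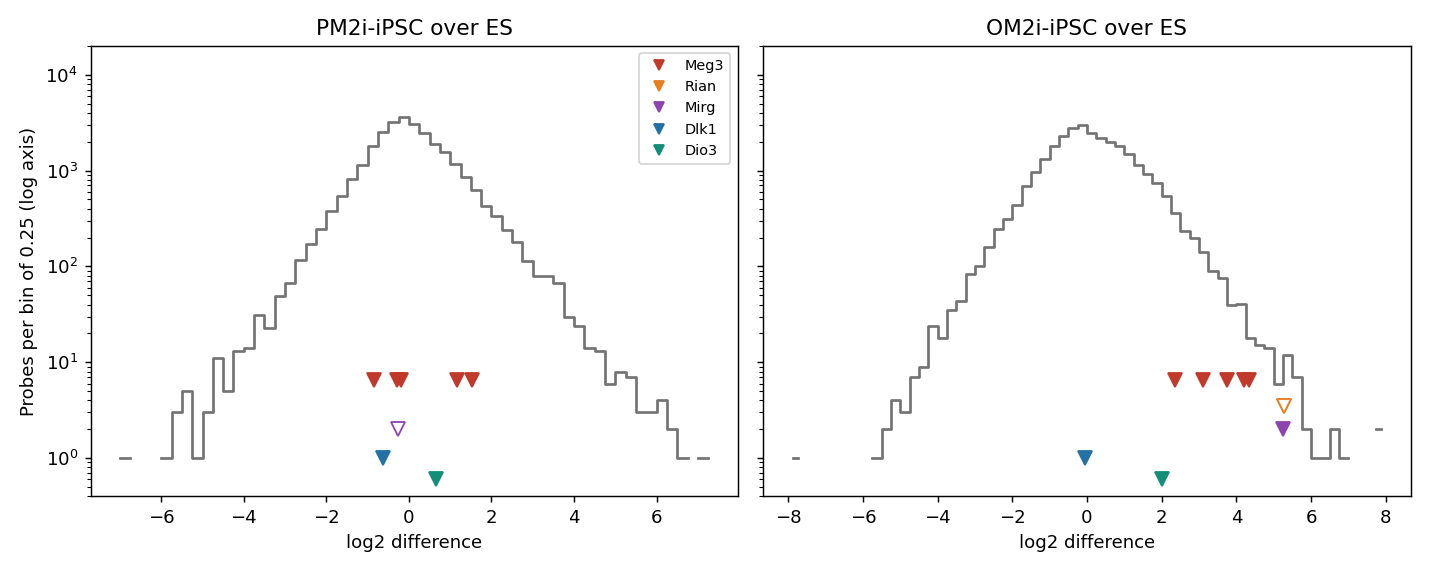
Distribution of the log2 difference from ES over all probes compared, in bins of 0.25, for PM2i-iPSC on the left and OM2i-iPSC on the right, with the probe count on a log axis. Triangles mark the probes of each member on a row per gene, open where the value is a bound, and their height has no meaning. Values beyond 8 in size fall in the end bins. The noncoding probes spread from -0.85 to 1.54 in PM2i-iPSC, where Rian has no fold, and from 2.37 to 5.29 in OM2i-iPSC.

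Differences from MEF depend on the scaling, since the median of all probes against MEF was 0.27 in PM2i-iPSC, 0.34 in OM2i-iPSC and 0.30 in ES, and -0.35, -0.40 and -0.26 when each array was scaled to its median. In PM2i-iPSC, 7 of the 8 noncoding probes lay below MEF by more than 4-fold and 0 lay 2-fold above it. Among all 28839 probes, 26.0% were lower by 2-fold or more, 12.9% by 4-fold or more, and 37.7% were higher by 2-fold or more. In ES, likewise, 7 of 8 lay below MEF by more than 4-fold and 0 lay 2-fold above it, where the shares of all 29856 probes were 24.0% for 2-fold lower, 11.8% for 4-fold lower and 36.9% for 2-fold higher. The exception in both was Meg3 probe A_51_P109649.

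OM2i-iPSC was split against MEF, with 3 noncoding probes at least 2-fold higher, 4 at least 2-fold lower and a median log2 difference of -0.11. The shares of all 29404 probes were 39.5% higher and 25.4% lower. Higher in OM2i-iPSC were Meg3 A_51_P109649 at 13.5-fold, Mirg at 3.61-fold and Rian A_52_P102630 at 3.60-fold. Of the coding probes, both of Dlk1 were lower and Dio3 was higher. The noncoding median exceeded the coding one by 1.74 here, and this value turned to -0.65 with the brightest probe of each gene and to -1.17 without Dlk1. The count of 10 member probes at least 2-fold apart became 6 with quantile normalization.

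Whether a preparation lay nearer to ES or to MEF was counted at the probes that were at least 2-fold apart between these 2. At 7 such noncoding probes PM2i-iPSC was nearer to MEF at 0 and OM2i-iPSC at 7. On the whole array 7162 probes were lower in ES by 2-fold or more relative to MEF, and of these 13.9% were nearer to MEF in PM2i-iPSC, against 20.3% for OM2i-iPSC. At both Dlk1 probes, each preparation was nearer to ES. Fibroblast markers did not follow the noncoding RNAs. Of 11 fibroblast marker probes with a fold, 11 lay below MEF by 2-fold or more in PM2i-iPSC, with a median log2 difference of -4.15, and 11 did so in OM2i-iPSC, with a median of -4.86. Among all probes the shares that far below MEF were 26.0% in PM2i-iPSC and 25.4% in OM2i-iPSC. In RNA of a whole population, fewer cells that express a transcript and less of it per cell cannot be told apart.

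Markers of other lineages were also set beside these values. The summed level of the trophoblast markers Cdx2, Eomes, Elf5 and Gata3 was 46.9% of the 75th percentile in PM2i-iPSC, 162% in OM2i-iPSC, 49.2% in ES and 170% in MEF. For the neural markers Sox1, Nes, Tubb3 and Olig2 it was 73.6% in PM2i-iPSC, 125% in OM2i-iPSC, 60.7% in ES and 180% in MEF. Elf5 was not well above background on any of the 4 arrays, and Olig2 was so in MEF alone. Both sums were higher in OM2i-iPSC and MEF, but different genes carried the trophoblast sum. Cdx2 had a signal of 372 in PM2i-iPSC, 4605 in OM2i-iPSC, 381 in ES and 17.7 in MEF, where it was not well above background. Gata3 had a signal of 45.9 in PM2i-iPSC, 207 in OM2i-iPSC, 172 in ES and 3154 in MEF, and was not well above background in PM2i-iPSC. Eomes went the other way, with a signal of 1200 in PM2i-iPSC, 710 in OM2i-iPSC, 956 in ES and 20.3 in MEF. In the neural sum, Nes and Tubb3 were higher in OM2i-iPSC and MEF, but Sox1 was not. Its signal was 750 in PM2i-iPSC, 620 in OM2i-iPSC, 219 in ES and 15.5 in MEF. Of 3 trophoblast probes with a fold against ES, 1, Cdx2, was higher by 2-fold or more in OM2i-iPSC, as were 21.1% of all probes. The part of these markers in the result was not tested. Of the endoderm marker probes with a fold, 5 of 6 exceeded MEF by 2-fold or more in PM2i-iPSC, 3 of 5 in OM2i-iPSC and 5 of 6 in ES, and 1 of 5 lay as far below ES in OM2i-iPSC. The shares of all probes that far above MEF were 37.7% in PM2i-iPSC, 39.5% in OM2i-iPSC and 36.9% in ES. The share that far below ES in OM2i-iPSC was 15.5%.

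The domain holds 6 further probes of no member between Dlk1 and Dio3. Those of the cDNA clones AK049674 and AK086774 lie on the plus strand between Meg3 and the second Rian probe, and are shown because both were well above background in OM2i-iPSC alone.
AK049674 A_52_P1035850, chr12:107161750-107161809: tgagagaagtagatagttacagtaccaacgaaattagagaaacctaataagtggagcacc
AK086774 A_52_P948095, chr12:107179049-107179108: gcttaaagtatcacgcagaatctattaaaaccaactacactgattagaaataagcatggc
AK049674 had a signal of 38.7 in PM2i-iPSC, 495 in OM2i-iPSC, 22.3 in ES and 3.72 in MEF, and OM2i-iPSC exceeded ES at least 5.07-fold. AK086774 had a signal of 33.5 in PM2i-iPSC, 225 in OM2i-iPSC, 18.4 in ES and 3.58 in MEF, and OM2i-iPSC exceeded ES at least 2.31-fold. Unlike the probes of Meg3, Rian and Mirg, they were not well above background in MEF.

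Dio3os, the antisense neighbour of Dio3 on the minus strand, had a signal of 1177 in PM2i-iPSC, 1447 in OM2i-iPSC, 1958 in ES and 465 in MEF. Its highest level was in ES, where Dio3 was lowest. However, OM2i-iPSC, where Dio3 was highest, lay only 0.55 below ES on the log2 scale, within spot error. The probe NAP070880-1, of a predicted transcript, had a signal of 28616 in PM2i-iPSC, 29835 in OM2i-iPSC, 56501 in ES and 10896 in MEF, and lay 2.20-fold below ES in PM2i-iPSC and 2.05-fold below it in OM2i-iPSC. B830012L14Rik and 4930511J24Rik, further along the plus strand, were not well above background on any of the 4 arrays.

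Outside the domain the difference between OM2i-iPSC and ES went both ways. Over all probes, 21.1% were higher and 15.5% lower by 2-fold or more in this comparison. Within 1 Mb on the centromeric side, 5 of 13 measurable probes exceeded ES by 2-fold or more in OM2i-iPSC and 3 lay as far below it, and on the telomeric side 5 of 34 were higher and 6 lower. The widest of these was 1700001K19Rik, 14.8-fold higher in OM2i-iPSC than in ES, which is named after its value was seen. Degs2, a sphingolipid desaturase and hydroxylase gene, had a signal of 354 in PM2i-iPSC, 424 in OM2i-iPSC, 24.2 in ES and 4.13 in MEF, with the last 2 not well above background. The 3 probes of Yy1, a zinc finger transcription factor gene, disagreed in OM2i-iPSC against ES, with log2 differences of -2.80, -0.75 and 2.05.

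**Figure D3:**
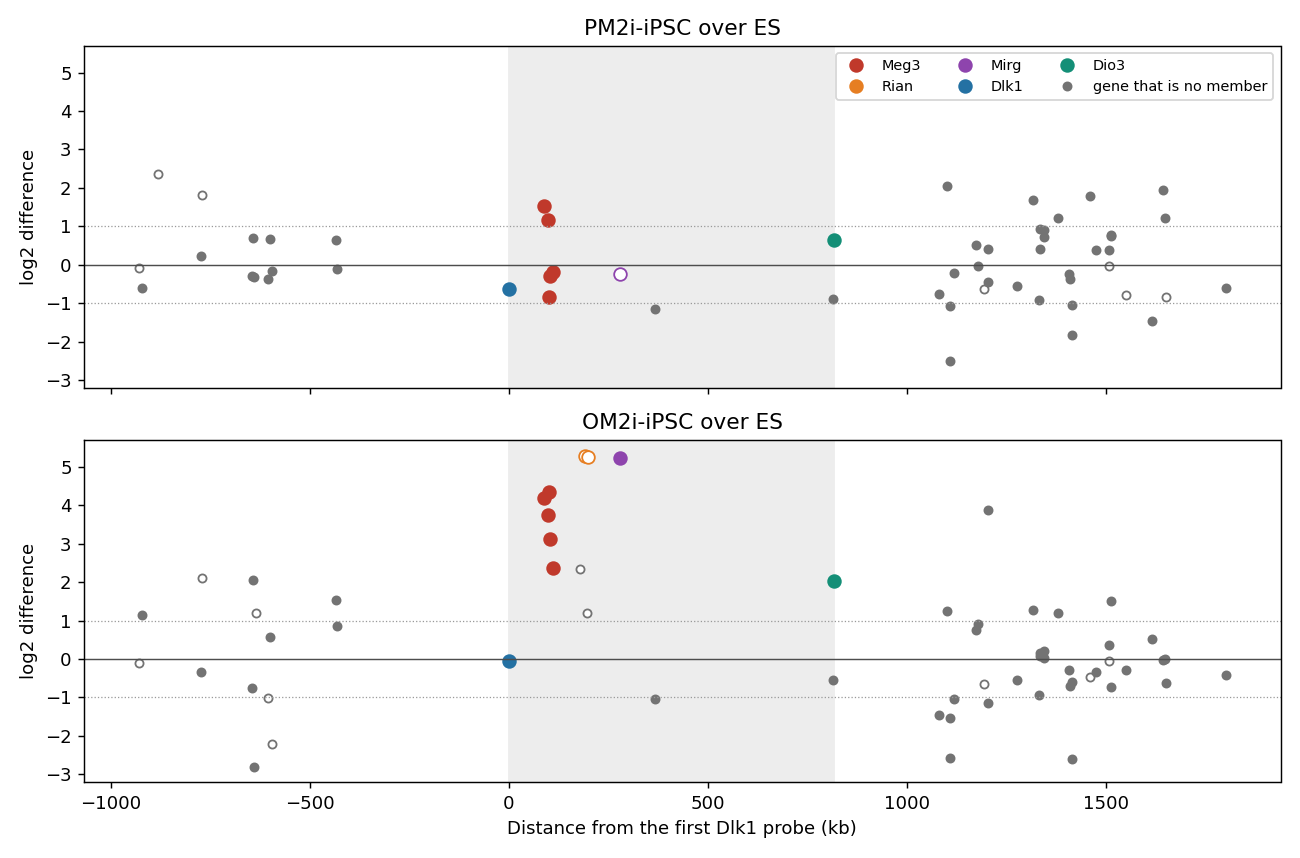
log2 difference from ES against distance in kb from the first Dlk1 probe, with PM2i-iPSC above and OM2i-iPSC below. Each point is a probe with a fold, open where it is a bound, the shaded band spans Dlk1 to Dio3, and dotted lines mark 2-fold. In OM2i-iPSC the noncoding probes reach 2.37 to 5.29, and in the flanks the widest point is 3.89.

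Lists of genes that act on or beside the domain were summarised against ES. For these and the lists that follow, the shares of all probes at 2-fold or more were 15.3% higher and 13.0% lower in PM2i-iPSC. In OM2i-iPSC they were 21.1% higher and 15.5% lower. Of 8 probes with a fold for imprint maintenance genes, 0 were at least 2-fold apart in PM2i-iPSC and 1 was higher in OM2i-iPSC, with medians of -0.04 and 0.12. The 1 was Dppa3, which protects methylation in the early embryo, at 3.65-fold higher. Zfp57, a zinc finger protein that holds imprinted methylation, had a signal of 41276 in PM2i-iPSC, 28799 in OM2i-iPSC, 45953 in ES and 1908 in MEF. Trim28, its corepressor, lay 1.26-fold below ES in PM2i-iPSC and 1.05-fold above it in OM2i-iPSC.

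For de novo methylation and Polycomb genes, relative to ES, PM2i-iPSC had 1 of 13 probes higher and 3 lower by 2-fold or more, and OM2i-iPSC had 2 higher and 2 lower. The methyltransferase gene Dnmt3b had a signal of 3458 in PM2i-iPSC, 2183 in OM2i-iPSC, 2009 in ES and 14.8 in MEF, where it was not well above background. Aff3, a component of a transcription elongation complex, had a signal of 81.8 in PM2i-iPSC, 608 in OM2i-iPSC, 160 in ES and 16.2 in MEF, and was 3.51-fold higher in OM2i-iPSC than in ES. This Aff3 probe was well above background in OM2i-iPSC and ES alone, and a second one on none of the 4 arrays.

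Imprinted noncoding RNAs elsewhere in the genome had 1 of 6 probes higher and 2 lower by 2-fold or more in PM2i-iPSC relative to ES, with a median of -0.60, and 1 higher and 0 lower in OM2i-iPSC, with a median of -0.50. The higher probe in both was A_52_P971616 of Airn, the antisense RNA of the Igf2r locus, at least 2.25-fold in PM2i-iPSC and at least 5.45-fold in OM2i-iPSC. The other 2 Airn probes were not well above background in PM2i-iPSC, OM2i-iPSC or ES. H19, by probe A_51_P142196, had a signal of 340 in PM2i-iPSC, 354 in OM2i-iPSC, 620 in ES and 25100 in MEF. This RNA, also expressed from the maternal copy, was thus low in OM2i-iPSC, where Meg3, Rian and Mirg were high.

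Partners of the protein-coding genes were counted in the same way. For the Notch genes, which the Dlk1 protein can act on, PM2i-iPSC had 1 of 11 probes higher and 1 lower by 2-fold or more relative to ES, and OM2i-iPSC had 4 of 12 higher and 2 lower. Notch4 lay 1.90-fold below ES in PM2i-iPSC and 15.0-fold below it in OM2i-iPSC. For thyroid hormone genes, the pathway of Dio3, 4 of 9 were higher and 1 lower in PM2i-iPSC, and 3 of 7 higher and 0 lower in OM2i-iPSC. The higher probes in PM2i-iPSC included those of Thrb, given as bounds. Dio2, the deiodinase that activates the hormone, had a signal of 437 in PM2i-iPSC, 1367 in OM2i-iPSC, 1074 in ES and 8082 in MEF. Of 5 probes of the Rtl family to which Rtl1 belongs, 0 were at least 2-fold apart in PM2i-iPSC and 1, Rtl6, was 2.69-fold lower in OM2i-iPSC than in ES.

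The genes whose pattern over the 4 arrays was most like that of each noncoding RNA were found by the root mean square difference of profiles centred on their own mean. Those nearest to Meg3 probe A_51_P455997 were Adcy7, an adenylyl cyclase gene, at 0.18, Atg4d, an autophagy protease gene, at 0.20, Evc2 at 0.22 and Tcl1b2 at 0.25 on the log2 scale. By the same measure the other Meg3 probes lay at 0.56 to 2.07 from it. The nearest genes were picked as the closest of 18587 probes, so their smaller distances do not set them above the Meg3 probes. Nearest to Mirg were the lipoxygenase gene Alox5 at 0.68, Meg3 probe A_52_P196568 at 0.85, the cyclin gene Ccnd2 at 0.89 and Pkdcc at 1.0, and Rian probe A_52_P102630 lay at 0.50 but is well above background on fewer arrays.

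Nearest to Rian probe A_52_P244 were the Y-linked genes Eif2s3y at 0.26 and Ddx3y at 0.45, followed by Adra2a at 0.67 and Wdr95 at 0.68. On the log2 scale relative to the 75th percentile, Eif2s3y had a level of -6.53 in PM2i-iPSC, -0.64 in OM2i-iPSC, -6.77 in ES and 0.84 in MEF. Ddx3y had -6.54 in PM2i-iPSC, 0.42 in OM2i-iPSC, -7.11 in ES and 1.41 in MEF. Both were well above background in OM2i-iPSC and MEF alone. Eif2s3y, Ddx3y and this Rian probe thus separated the same arrays. The other probes of Meg3, Rian and Mirg were also higher in OM2i-iPSC and MEF than in PM2i-iPSC and ES. Meg3 probe A_51_P109649 was the exception. The Y-linked split and that of the noncoding RNAs cannot be told apart on these arrays, and a link between them was not tested. Whether the cells came from the same or from different embryos was not given in the sources used here. With 4 arrays such likeness is a description.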

How the data were processed

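Each Agilent array was deposited as scanner output with the intensity of every spot. Per the file headers, the Feature Extraction software was version 10.7.3.1 for PM2i-iPSC, OM2i-iPSC and ES but 9.5.3.1 for MEF. The processed signal deposited there is already background-subtracted by that software. The deposited series table holds the same intensity rounded, within 0.5% on every spot. The Affymetrix log2 table, made by the authors with RMA per the submitters' processing notes, was not used.

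Here, control spots and outlier spots were left out, signals were divided by their array's 75th percentile and put on the log2 scale, and spots of a probe were averaged (Python 3.11.15, numpy 2.4.6, pandas 2.3.3). Normexp with an offset of 50 used limma 3.58.1 in R 4.3.3. The scaling was tested on simulated data. Names came from the file of MEF and, through accessions and older symbols, from a RefSeq table (GRCm38.p6). Coordinates stayed in mm7. A probe entered a comparison when well above background on at least 1 of its 2 arrays. A fold is not given where both arrays were dim, where the bound turned the direction, or where both were saturated. Calls were made at 2-fold, with 4-fold beside it.

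The members and lists were chosen with earlier results of these data known. Named were every member probe, named probes between Dlk1 and Dio3, the listed genes with the widest differences (not all are given), and the 4 genes nearest in pattern to each noncoding RNA by its brightest probe. Alternatives were the scaling, background, input, bound, spot summary, naming, brightest probe and members left out. Leaving out a Meg3 probe was added after seeing the data.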

Additional observations from a re-analysis of the deposited data

Results flagged for a closer look

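At 4 probes the difference from ES had opposite signs in the 2 iPSC preparations, and the difference between them was not tested, since each group has 1 array. Meg3 probe A_52_P196568 had a log2 difference from ES of -0.85 in PM2i-iPSC and 4.33 in OM2i-iPSC. For Meg3 probe A_51_P109649 these values were -0.30 for PM2i-iPSC and 3.12 for OM2i-iPSC, while A_51_P455997 had -0.20 for PM2i-iPSC and 2.37 for OM2i-iPSC. For Mirg probe A_52_P277415 they were -0.25, a bound, for PM2i-iPSC and 5.24 for OM2i-iPSC. For PM2i-iPSC the first of the 3 Meg3 values lay outside 2 pooled SDs between spots and the other 2 lay within. At signals as low as those of the first probe, the SD of 1 spot was 0.41 in PM2i-iPSC and 0.27 in ES. With that wider spread the first value was not clear of spot error either. The Mirg value is a bound and cannot be set against that error, and it was -2.31 at the measured signal.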

How the results depend on the processing

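Of 48 member differences of at least 2-fold, 48 kept their direction under each of 6 settings, and 44 to 48 stayed at least 2-fold apart. Some of these settings could not turn a direction. The median over spots changed nothing, since each member probe has 1 spot, and the deposited values are the same signal rounded. Leaving out bounds only widens a difference given as a bound. Under the other settings, 44 stayed at least 2-fold apart with normexp on median signals, 44 with quantile normalization and 47 with the array median. The noncoding minus coding median was more sensitive, since the coding side holds 2 or 3 probes. In PM2i-iPSC against ES it was -0.72 without bounds and -0.87 without Dlk1. In OM2i-iPSC against ES it was 2.84 with normexp, 3.78 without bounds, 4.25 with the brightest probe of each gene and 2.24 without Dlk1. In PM2i-iPSC against MEF it was -1.10 with quantile normalization, -1.94 with normexp, -1.81 without bounds, -2.71 with the brightest probe and -3.40 without Dlk1. In OM2i-iPSC against MEF it was 2.30 with quantile normalization, 1.36 with normexp, 0.83 without Mirg and 0.83 without Meg3 probe A_51_P109649, and it changed sign to -0.65 with the brightest probe and to -1.17 without Dlk1. In ES against MEF it was -2.50 with the brightest probe and -2.74 without Dlk1. In OM2i-iPSC against PM2i-iPSC it was 2.62 with normexp, 3.73 without bounds, 3.75 with the brightest probe, 2.44 without Mirg, 2.69 without Dlk1 and 3.75 without that Meg3 probe. The cause of these shifts was not tested, apart from the fewer probes that remain when some are left out.

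The count of member probes at least 2-fold apart in PM2i-iPSC against ES was 2, and 1 with normexp, 0 with the brightest probe and 0 at 4-fold. In OM2i-iPSC against MEF it was 10, and 6 with quantile normalization, 5 with the brightest probe and 2 at 4-fold. With the brightest probe of each of 5 genes the count was 4, in place of 9, in OM2i-iPSC against ES, PM2i-iPSC against MEF, ES against MEF and OM2i-iPSC against PM2i-iPSC. A slide block could not be fitted with 1 array per group. No paired analysis was possible because each group has 1 array. Signal over background limits Rian and Mirg in PM2i-iPSC and Rian in ES to bounds.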
